A study of Drosophila melanogaster with 3 samples.

Results

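The genes described here encode the core of small RNA silencing in *Drosophila melanogaster*: the Argonaute proteins AGO2, AGO1, Piwi and Aubergine (*aub*), and the enzymes and partners that make their guide RNAs, Dcr-1, Dcr-2, *loqs*, *r2d2*, *drosha* and *pasha*. They were taken as the 10 CG numbers of these genes, and 5 of the 10 had a row among the 7498 genes of the deposited table. Transcript levels were compared between larval hearts of *hand173*, a homozygous null mutant of the basic helix-loop-helix transcription factor gene *hand*, and of w1118, the wild type control. Animals of both genotypes were raised at 22 °C and dissected as wandering larvae of instar 3, after a heat treatment of 15 seconds at 60 °C. About 100 heart tubes per genotype, with the pericardial cells and muscle fibres attached to them, were combined into 1 RNA pool, and both pools were hybridized to 3 spotted 2-colour arrays. The *hand173* RNA carried Alexa Fluor 647 and the w1118 RNA Alexa Fluor 555 on every array, without a dye swap. Each array gave a log2 ratio per gene, read as *hand173* over w1118. This direction is likely rather than stated, and rests on the dyes and on the directions in which the study lists its genes. The study's methods describe the arrays as technical replicates of this pair of pools, so that they count here as 1 replicate of the comparison. The sample titles carry the abbreviation bR, which could also stand for biological replicates. No test was therefore made, and each SD below covers the spread between arrays only. The pools are bulk tissue, in which fewer cells of a type and less RNA per cell cannot be told apart. Mutant larvae of this age are those that passed the early larval stages at which part of the *hand* mutants die.

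Argonaute proteins hold a small RNA as a guide and act on transcripts that pair with it. AGO1 mainly carries microRNAs, which Drosha with its partner Pasha and then Dcr-1 with Loquacious cut from hairpin transcripts. AGO2 mainly carries small interfering RNAs, which Dcr-2 cuts from long double-stranded RNA and loads together with R2D2, and it is best known for defence against viruses. Piwi and Aubergine carry piRNAs, which silence transposons and are best known from the gonads.

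The arrays differed in coverage and in level. Of all genes, 1372 had a value on array 1, 2650 on array 2, 6459 on array 3 and 466 on each of them. The log2 ratios had medians of 0.97 (array 1), 0.38 (array 2) and -0.56 (array 3). Values are thus given as deposited and again with the median of their array set to 0, which is called centred. Arrays 2 and 3 correlated with Pearson's r = 0.77, while array 1 stood apart with 0.09 against array 2 and 0.14 against array 3. These are correlations across genes, which are not independent replicates. The median SD of a gene between its arrays was 0.79 as deposited and 0.40 after centring. The study scored genes on the arrays without a test. Upregulated were those with over 1.33 times the wild type level on at least 2 arrays, and downregulated those with under 0.67 times. The same thresholds were used here, but the study lists fewer genes in both directions than they gave here, with 160 against 244 upregulated. It also measured selected genes again in whole larvae, by quantitative PCR and in part by Northern blot, and PCR bore out only some of them. None of the 10 genes listed at the start is among those the study names as measured again. The *hand* gene itself was measured on array 3 alone, at -0.16 as deposited and 0.40 centred, and the part of the gene that the allele lacks is not given in the sources used here, so this value does not check the genotypes.

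*AGO2* (CG7439) was scored as upregulated in *hand173* hearts and *aub* (CG6137) as downregulated. These were the only members with values on more than 1 array. Among all 2517 genes with at least 2 values, 9.69% were scored as upregulated and 20.5% as downregulated. Among the 466 genes with 3 values, to which both belong, the shares were 32.0% and 45.3%. The members were chosen with these ratios known, so that nothing is read from a count of 1 in each direction.

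*AGO2* had a log2 ratio of 1.50 on array 1, 0.63 on array 2 and 0.51 on array 3. These correspond to 2.83, 1.55 and 1.42 times the wild type level. All 3 ratios lay over 1.33, which 77.6% of the values of array 1, 48.3% of array 2 and 6.50% of array 3 also did. The mean log2 ratio was 0.88 ± 0.54 (SD, n = 3 arrays of 1 pair of pools). As deposited, 5 of the 466 genes with values on all arrays (1.07%) passed this threshold on every array, and *AGO2* had the third largest mean increase among the 5. As *AGO2* was chosen with these ratios known, its place among them is a description only. The value on array 3 was the lowest and lay closest to the threshold, whose log2 value is 0.41. After centring, the log2 ratios of *AGO2* were 0.53, 0.25 and 1.06 on arrays 1, 2 and 3, with a mean of 0.62 ± 0.41. All 3 stayed above 0, but the one on array 2 no longer passed the threshold, and the order of the arrays changed. Array 1 held the highest value as deposited and array 3 the highest after centring. Of the 466 genes, 74 (15.9%) lay above 0 on all arrays after centring.

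The position of *AGO2* among the genes of an array does not depend on centring. Its ratio lay at percentile 81.5 of array 1, 62.0 of array 2 and 94.8 of array 3. Among the 466 genes with 3 values, which were lower on array 3 than other genes (median -1.13 as deposited), it lay at percentiles 86.6, 73.6 and 98.6. The increase was small in size. At a 2-fold threshold *AGO2* was not scored, as only the value on array 1 reached it. It was scored under each of the other settings tried, including each array left out in turn, which was done on the deposited ratios. After centring only arrays 1 and 3 passed the threshold, so that the score then needs both.

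The log2 ratio of *aub* was 1.15 on array 1 but -2.24 on array 2 and -2.56 on array 3, so that array 1 lay apart from the others. The transcript was at 0.211 and 0.170 times the wild type level on arrays 2 and 3 but at 2.22 times on array 1. The mean log2 ratio was -1.22 ± 2.06 (SD, n = 3 arrays), so that the mean was smaller than the spread between arrays. Without array 1 it was -2.40. It was -0.71 without array 2 and -0.55 without array 3, and in both cases *aub* was no longer scored. After centring, the value on array 1 was 0.18, against -2.62 on array 2 and -2.0 on array 3. Of the values of array 2, 22.8% lay under 0.67, and 49.0% of those of array 3. In percentiles of the array, *aub* lay at 63.6 for array 1, 6.30 for array 2 and 6.16 for array 3. Among the 466 genes with 3 values these were 68.3, 9.23 and 15.8, so that *aub* stood out less on array 3. As deposited, the combination of a ratio over 1.33 on array 1 with ratios under 0.67 on arrays 2 and 3 was common, with 135 of the 466 genes (29.0%).

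**Figure D1:**
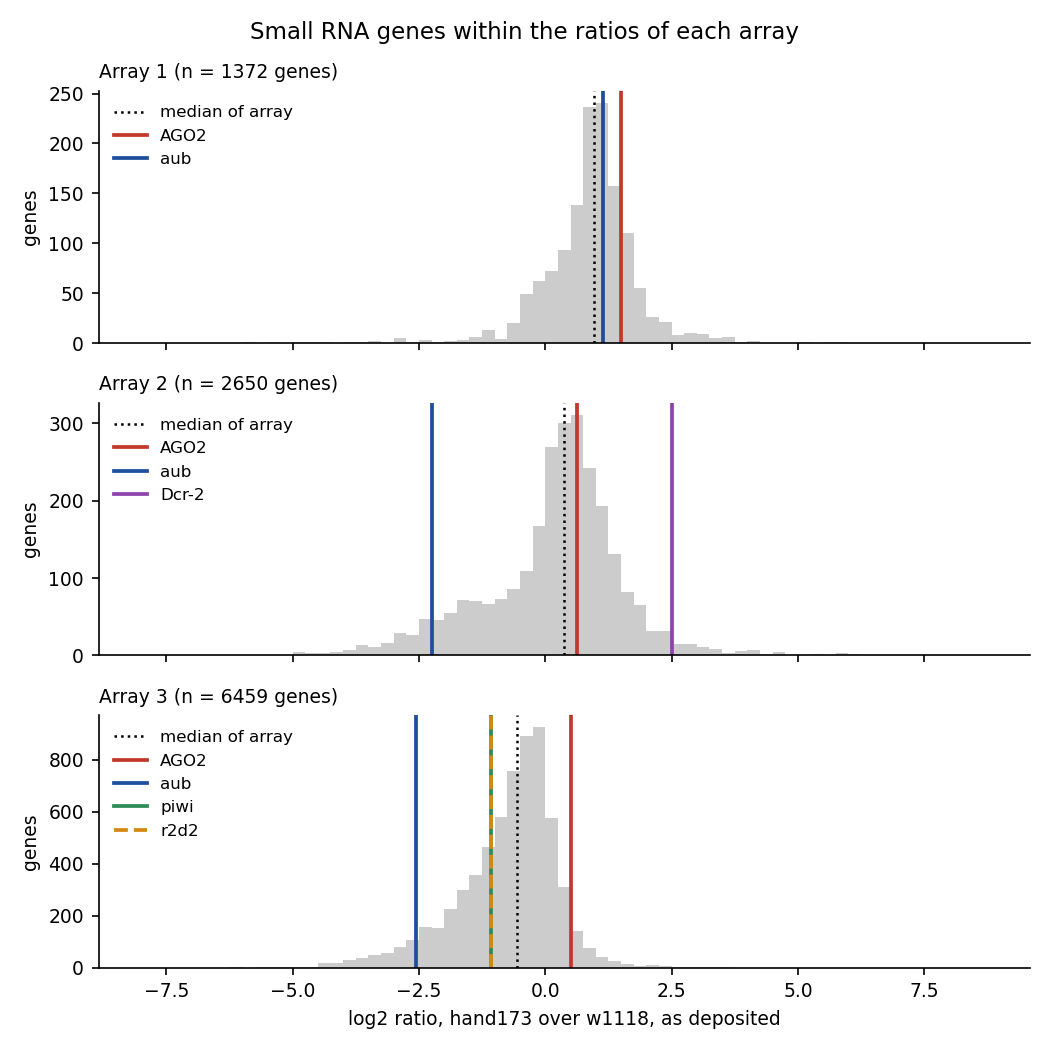
Distribution of the deposited log2 ratios of *hand173* over w1118 (x axis) as numbers of genes (y axis) on arrays 1, 2 and 3, with coloured lines at the measured members and a dotted line at the median of the array. *AGO2* lies to the right of the median on all 3 arrays, *aub* in the left tail on arrays 2 and 3 only, and *piwi* and *r2d2* coincide on array 3.

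The other measured members had 1 value each and could not be scored. *piwi* (CG6122), which acts in the nucleus and lies close to *aub* in the genome, had a log2 ratio of -1.08 on array 3. *r2d2* (CG7138), the double-stranded RNA-binding partner of Dcr-2, had -1.07 on the same array. Both values lay under the 0.67 threshold as deposited, as did 49.0% of the values of array 3. Centred on the median of the array they were -0.52 each and did not pass it, and centred on the genes with 3 values, which was tried only once the values were known, they turned to 0.055 and 0.059. At percentiles 29.6 and 29.7, *piwi* and *r2d2* lay within the bulk of array 3.

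*Dcr-2* (CG6493), the RNase III enzyme that makes small interfering RNAs, had a value on array 2 only. Its log2 ratio was 2.52, or 5.72 times the wild type level, and 2.14 after centring. This was the highest single ratio among the members, at percentile 96.9 of array 2. Over 1.33 lay 48.3% of the values of that array as deposited and 31.3% after centring. Among the 604 genes with a value on array 2 alone, whose median log2 ratio was 0.64, *Dcr-2* lay at percentile 92.0. No other array bears on this value. *AGO1*, *Dcr-1*, *loqs*, *drosha* and *pasha* had no row and are unmeasured here, so that no gene specific to the microRNA branch was measured. A row was present for 49.7% of the 13962 protein-coding genes with a CG number in the RefSeq annotation, and thus for about the same share as for the members.

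Differences between members on 1 array are free of the level of that array. The log2 ratio of *AGO2* exceeded that of *aub* by 0.35 (array 1), 2.87 (array 2) and 3.07 (array 3), so that the pair kept its order on every array while the difference was small on array 1. On array 3 *AGO2* also exceeded *piwi* and *r2d2*, each by 1.58. The partners *Dcr-2* and *r2d2*, which work as a pair, shared no array and cannot be compared with each other. On array 2 the log2 ratio of *Dcr-2* exceeded that of *AGO2* by 1.89. Over the 5 measured members, the median of the mean log2 ratios was -1.07, against -0.24 over all genes. After centring it was -0.52, against 0.01 over all genes. Its direction depended on the arrays and the centring, with 1.07 without array 3 and 0.059 centred on the genes with 3 values.

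Genes with ratios most like those of *AGO2* were sought among 464 other genes with values on all arrays, by the Euclidean distance of the 3 centred log2 ratios. The nearest were CG17054 at a distance of 0.17, *lncRNA:CR15061* at 0.22 and *ms(3)76Ba* at 0.36, where the median distance was 2.31. CG17054 was also among the 5 genes past 1.33 on every array, with log2 ratios of 1.40, 0.56 and 0.63. Nearest to *aub* were *Srp14*, a subunit of the signal recognition particle, at 0.26, *Acbp6* at 0.32 and *yrt* at 0.34. *Srp14* had log2 ratios of 1.08, -2.45 and -2.69 and so shared the opposite sign on array 1. With 3 arrays of 1 pair of pools, likeness of this kind is a description of the ratios only.

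Of the protein-coding genes next to *AGO2* on the annotation, *obst-H* had a log2 ratio of 1.25 on array 1, *CrebA* had 1.03 on array 3 and CG7739 had 0.68 on array 2 and -0.64 on array 3. CG7739, the only one of the 6 nearest genes with 2 values and thus the only one that could be scored, was not scored. Around *aub*, the member *piwi* had -1.08 on array 3, *RpL9* had -0.31 on array 2 and -0.57 on array 3, and *Nup154* had -0.32 on array 2. *RpL9*, here the only neighbour with 2 values, was not scored either. The neighbours were looked up after the values had been seen.

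Beyond the members, 78 further genes of small RNA pathways were listed by role, of which 44 had a row and 16 had values on at least 2 arrays. Of these 16 genes, 1 was scored as upregulated (6.25%, against 9.69% of all genes) and 3 as downregulated (18.8%, against 20.5%). Both shares lay near those of all genes. After centring, 2 were up (12.5%, against 11.8% of all genes) and 4 were down (25.0%, against 21.9%).

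The upregulated gene was *shu*, which encodes an immunophilin-like protein required for piRNA production. Its log2 ratio was 1.35 on array 2 and 0.54 on array 3, and the mean was 0.94 ± 0.57 (SD, n = 2 arrays). Centred values were 0.97 and 1.09, so that both arrays gave nearly the same increase. *mael*, another gene of piRNA-guided silencing, had 1.12 and -0.04 on these arrays and passed the threshold on both only after centring, with 0.75 and 0.52.

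The downregulated genes were *Cbp80*, *p23* and *pAbp*. *Cbp80*, the large subunit of the nuclear cap-binding complex, had -4.31 on array 2 and -2.77 on array 3, with the lowest mean of the 16 genes at -3.54 ± 1.09 (SD, n = 2 arrays). Its partner in this complex, *Cbp20*, had 1.23 on array 1 and -1.23 on array 3 and was not scored. *p23*, a co-chaperone of Hsp90, had -1.46 and -1.22 on arrays 2 and 3. *pAbp*, the poly(A)-binding protein, had 2.76 on array 1 but -1.25 on array 2 and -1.38 on array 3, the pattern seen for *aub*. After centring, *cuff*, a nuclear factor of piRNA cluster transcription, was scored as well, with -0.91 and -1.83 on arrays 2 and 3. As deposited it had -0.54 on array 2, just inside the threshold.

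**Figure D2:**
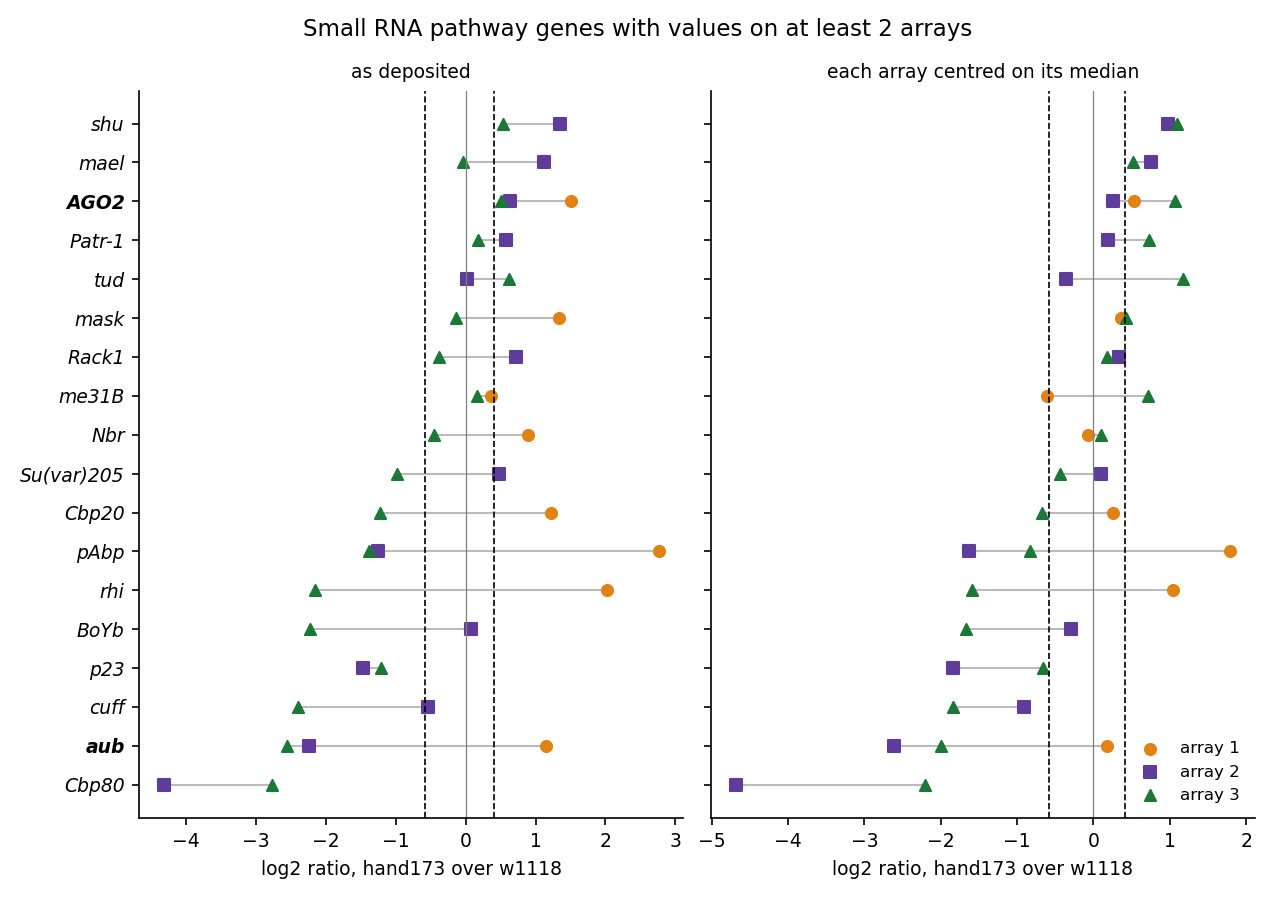
Log2 ratios of *hand173* over w1118 (x axis) for *AGO2*, *aub* and the 16 other small RNA pathway genes with at least 2 values, as deposited (left) and centred on the median of each array (right), with 1 symbol per array and dashed lines at ratios of 0.67 and 1.33. The 3 values of *AGO2* lie to the right of 0 in both panels. Array 1 lies far from arrays 2 and 3 for *aub* and *pAbp*, and far from array 3 for *rhi*, which has no value on array 2.

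As deposited, array 1 and array 3 often lay on opposite sides, as did their medians of 0.97 and -0.56 over all genes. Of the 6 listed genes with values on both, 3 had a deposited ratio over 1.33 on array 1 and under 0.67 on array 3, as had 38.1% of all such genes. The 3 genes were *pAbp*, *Cbp20* and *rhi*, a heterochromatin protein of piRNA clusters, with 2.02 and -2.15. After centring, *pAbp* was at 1.79 on array 1 and -0.83 on array 3, and *rhi* at 1.05 and -1.60, so that both kept this pattern. *Cbp20* lost it, with 0.26 on array 1 and -0.67 on array 3. *me31B*, an RNA helicase of messenger RNA storage and decay, had 0.36 and 0.16 on these arrays as deposited, but -0.61 and 0.72 after centring, past opposite thresholds.

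**Figure D3:**
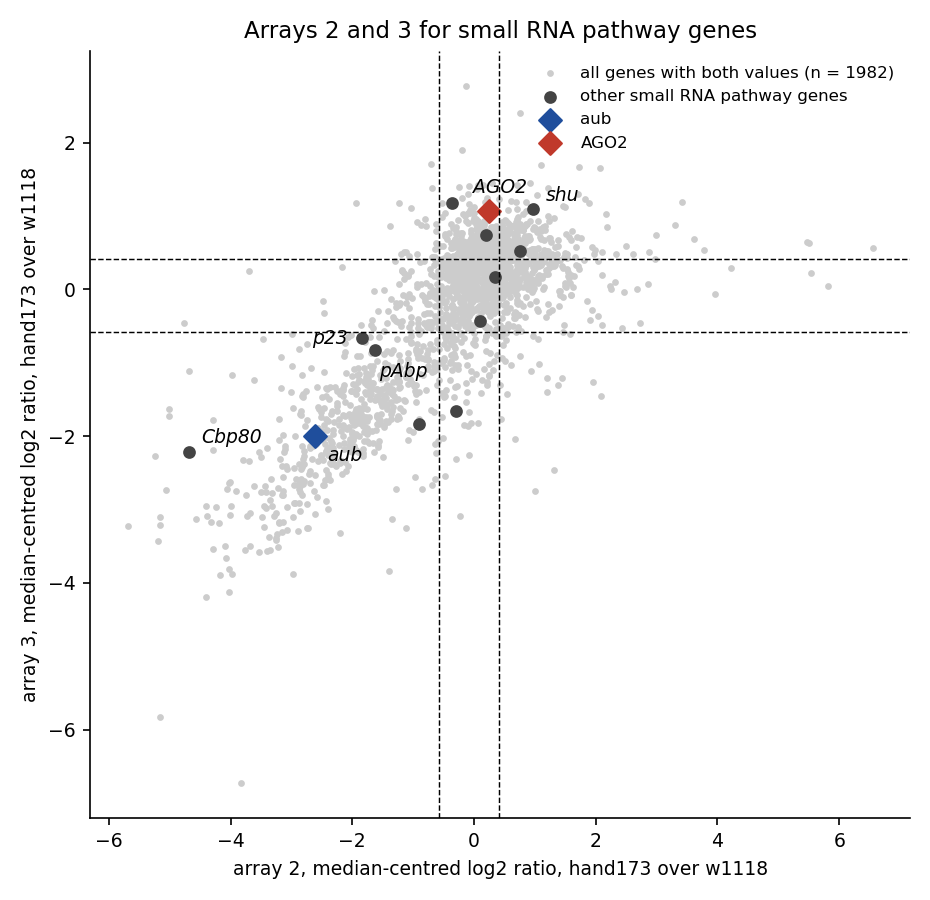
Median-centred log2 ratios of *hand173* over w1118 on array 2 (x axis) and array 3 (y axis) for all 1982 genes with both values (grey), other small RNA pathway genes (black) and the members *AGO2* and *aub* (diamonds), with dashed lines at ratios of 0.67 and 1.33. *aub* and *Cbp80* lie low on both arrays, *shu* lies high on both, and *AGO2* lies over the upper line on array 3 but not on array 2.

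On array 3, the array with the widest coverage, 41 of the further pathway genes had a value. Their median was -0.43 after centring and -0.99 as deposited. Under the 0.67 threshold lay 19 genes after centring (46.3%, against 28.1% of all genes on that array) and 24 genes as deposited (58.5%, against 49.0%). Over 1.33 lay 11 genes after centring (26.8%, against 27.3%) and 4 genes as deposited (9.76%, against 6.50%). For 25 of the 41 genes this was the only value. By role, 3 of the 5 measured chaperones, listed for the loading of Argonautes, lay under 0.67 after centring, and none over 1.33. The piRNA genes were divided, with 7 of 14 under and 5 over, and so were the proteins that act with or after the silencing complex, with 6 of 14 under and 5 over. The lowest centred values, named after they were seen, were those of *Stip1*, a co-chaperone of Hsp70 and Hsp90, with -3.65, and *bel*, an RNA helicase, with -3.33. The highest was that of *Rm62*, also an RNA helicase, with 1.42. *AGO3*, the remaining Argonaute and the partner of Aubergine in piRNA amplification, had its only value on array 2, at 2.99 as deposited and 2.61 centred.

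**Figure D4:**
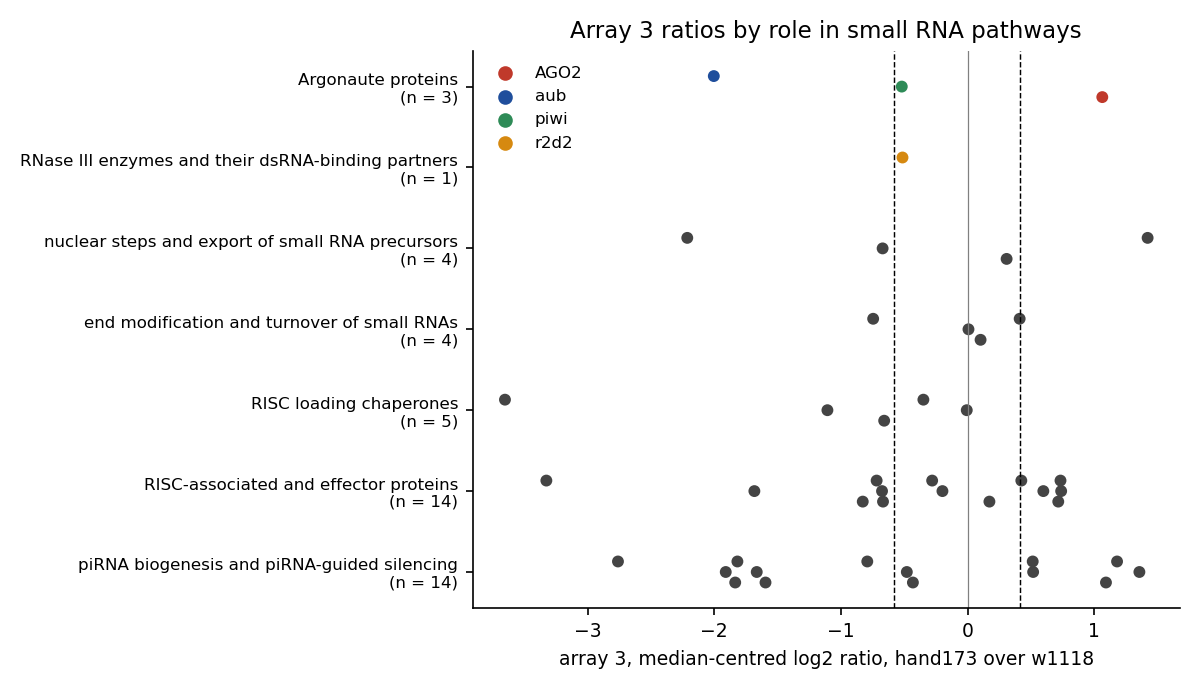
Median-centred log2 ratios of *hand173* over w1118 on array 3 (x axis) for small RNA pathway genes grouped by role (y axis, with the number of genes), each point being 1 gene and the measured members coloured, with dashed lines at ratios of 0.67 and 1.33. *AGO2* lies among the higher and *aub* among the lower of these genes, and the piRNA genes spread to both sides.

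Since *aub*, *piwi* and many of the piRNA genes are best known from the gonads, and heart preparations may carry other tissues, marker genes were set beside them. Ratios do not give levels, so that the presence of a tissue could not be checked. Of 10 markers of heart and pericardial cells 4 had a row, each on array 3 only, with centred log2 ratios from -0.73 for *svp* to 0.40 for *hand*, and *tin* was among those without a row. Over all genes with at least 2 values, 9.69% were scored as upregulated and 20.5% as downregulated. Of 6 markers of pericardial nephrocytes 4 had a row. *mgl*, with -4.78 on array 2 and -6.39 on array 3, was scored as downregulated and was the only one that could be scored. The others had 1 value per row, with centred log2 ratios of 1.06 for *sns* on array 2 and, on array 3, 0.80 for *Cubn* and -0.04 and -0.65 for *pyd*. Of 10 muscle markers 7 had a row. Of their 4 rows with at least 2 values, 3 were older numbers of the same gene, *Mlp60A*, and the other was *Zasp52*. The *Mlp60A* rows disagreed, with mean log2 ratios of -3.52, -0.95 and 0.72 as deposited, and *Zasp52* had -0.73. Of these 4 rows, 1 was scored as upregulated and 3 as downregulated, or 1 and 2 after centring. The other muscle markers with a row had 1 value each. Centred, *Mhc* was at 1.78 on array 2. On array 3 *Mlc2* was at 1.31, *sls* at 0.79, *Act87E* at 0.43 and *up* at -1.61. Of 10 germ line and gonad markers 5 had a row, the defining *vas* and *nanos* had none, and the 5 ranged in centred mean log2 ratio from -0.52 for *tj* to 2.61 for *AGO3*. On array 3, 3 of the 4 with a value lay over 1.33 after centring, against 27.3% of all genes, with *bam* at 2.02, *tud* at 1.18 and *bgcn* at 0.52. As deposited 2 of the 4 did, against 6.50% of all genes, and *bgcn* was at -0.03. *tud* also had a value on array 2, at 0.02 as deposited and -0.36 centred, and was not scored. Of 7 fat body markers 6 had a row, with centred means from -2.11 to 1.04. Only 3 of them had at least 2 values, and 1 of these was scored as downregulated. As deposited *Fbp1* was also scored, as upregulated, but not after centring. The downregulated gene, *Lsp1alpha*, had log2 ratios of 1.36, -3.30 and -3.61, with the signs of *aub* on each array. Of 8 hemocyte markers 5 had a row, and 2 of them had at least 2 values. *Pxn*, with 0.30, -1.69 and -2.96, was scored as downregulated. *vkg*, with -0.21 on array 1 and -0.67 on array 3, was not scored. The other hemocyte markers had 1 value each, with centred log2 ratios of 1.78 for *srp* on array 2 and, on array 3, 0.21 for *Col4a1* and -0.22 for *NimC1*. The part of these tissues in the ratios of *AGO2* and *aub* was not tested. Most labels name dissected hearts as the source, whereas the text on labelling names fat body, a difference that was not resolved.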

How the data were processed

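RNA of 1 pool of larval hearts per genotype was amplified, labelled and hybridized to 3 spotted *Drosophila* arrays. The authors scanned the arrays, used GenePix and Acuity for normalization, and deposited the values as log2 ratios, at most 1 for each gene on an array. The kind of normalization, the filter on spots, the reason for empty cells and the genome build are not given in the sources used here, and signal over background was not analysed here. The study calls the arrays technical replicates, so they were treated as 1 replicate and their number limits the precision.

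Values were used as deposited and after subtraction of the median of each array. Genes were scored by the study's thresholds of 1.33 and 0.67 on at least 2 arrays. Named are all 10 members, further pathway genes that were scored or had 3 values, the 3 genes nearest to *AGO2* and to *aub*, and genes said to be named for their values. *Cbp20*, *rhi*, *me31B*, *AGO3* and the neighbours fall outside this rule and were chosen after their values were seen. The marker genes came from lists by tissue, and which of them to name was decided after their values were seen. Members and lists were chosen with earlier results of these data known. Gene symbols are those of the RefSeq annotation (assembly Release 6 plus ISO1 MT), in which 7085 of 7498 numbers were found. Of 78 listed pathway symbols 77 were found, and 3 of the 44 rows carried an older number of the gene. Alternatives were centring, scaling, other thresholds and leaving out each array. Python 3.11.15, numpy 2.4.6, pandas 2.3.3 and matplotlib 3.10.9 were used.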

Additional observations from a re-analysis of the deposited data

How the results depend on the processing

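*AGO2* was scored as upregulated under every setting but the 2-fold threshold, where 0 members and 46 of all genes were up, and its mean log2 ratio ran from 0.57 without array 1 to 1.07 without array 3. *aub* was scored as downregulated except without array 2, without array 3 and with all 3 arrays required, each with 0 members down. With 1 array left out, between 39 and 174 of all genes were up, against 244 with all arrays, and between 12 and 501 down, against 516. The further pathway genes then ran from 0 to 1 up and from 0 to 3 down. The median of the members ran from -1.07 to 1.07, the latter without array 3, which holds the only values of *piwi* and *r2d2*. With all 3 arrays required, 5 genes were up and 10 down, with 0 pathway genes up and 0 down. Genes with 3 values gave 149 up and 211 down, with 0 pathway genes up and 1 down. The mean over arrays gave 674 genes up and 3 pathway genes up, centring gave 2 pathway genes up, scaling 3, and the 2-fold threshold 0. Centring on the genes with 3 values, tried once the values were known, gave 979 genes up and 435 down, 5 pathway genes up and 1 down, and turned *piwi* to 0.055 and *r2d2* and the median of the members to 0.059. The cause was not tested. Directions of *piwi*, *r2d2* and *Dcr-2* rest on 1 value each. No paired analysis was possible because no result came from a test, and each ratio already compares both pools within 1 array.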
